A study of Mus musculus with 20 samples.

Results

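The genes described here are 47 mouse genes: *Myc* and 46 factors of the nucleolus, of ribosomal RNA processing and of RNA polymerase I. They were taken as a named list and matched by Ensembl identifier, and all 47 were found among the 54838 gene rows of the files. Expression was measured by RNA-seq in 20 libraries from crypt cells of the mouse intestine and from intestinal organoids, which are cultured epithelial buds. Tissue came from C57BL/6 mice carrying *Mettl3*fl/fl, *Lgr5*-EGFP-IRES-CreERT2 and *Villin*-CreERT2, and the Villin promoter drives Cre in intestinal epithelium. The METTL3 protein is the enzyme that places most m6A on messenger RNA.

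Of the 12 tissue libraries, those of WT and of the knockout at days 3 and 4 are labelled with a gate on the *Lgr5* reporter. WT Lgr5-high, WT Lgr5-low, knockout Lgr5-high at day 4, knockout Lgr5-low at day 4 and knockout at day 6 had 2 libraries each, and knockout at day 3 had 1 library in each gate. The labels name no gate for day 6, and the column header of its first library names the low gate. In the knockout mice Cre was switched on with tamoxifen (20 mg/ml, 4 days). WT tissue is labelled untreated, whereas the protocol says that *Mettl3*fl/fl mice without Cre were given tamoxifen too, so if WT was untreated, tamoxifen and the deletion cannot be told apart. The 8 organoid libraries held 2 each of WT (ethanol, 2 days), *Mettl3*-/- (4-OHT, 2 days), *Mettl3*-/- with retroviral *Ascl2*, *Klf9* and *Fosb* (AKF), and *Mettl3*-/- with these and *Purb* (AKFP). WT organoids were given ethanol and *Mettl3*-/- organoids 4-OHT, so 4-OHT and the deletion cannot be told apart between them. The labels give 2 days of treatment for the AKF and AKFP organoids as well. The titles of the WT and *Mettl3*-/- organoids without added factors hold "m3-flag", which the labels do not explain. "Knockout" below means labelled *Mettl3*-/-. Gene-level *Mettl3* lay between 2.75 and 4.99 FPKM in all 20 libraries and cannot check the deletion, since a transcript without the deleted part still counts for the gene.

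Ribosomes are built in the nucleolus. RNA polymerase I copies the ribosomal DNA, small nucleolar RNA-protein complexes (snoRNPs) guide the modification of the transcript, and separate sets of factors cut, fold and export the small and large subunits. *Myc* is a transcription factor known to bind and activate genes of all these steps, and in intestinal crypts it is a target of Wnt signalling.

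At the scale of FPKM (mapped fragments scaled to library size and transcript length) all 47 genes were expressed in both sets, and all 47 passed the filter of 1 FPKM in at least 2 libraries. In tissue, *Npm1*, a nucleolar histone and ribosome chaperone, had the highest mean at 175 FPKM over the 12 libraries. *Nhp2*, a protein of the box H/ACA snoRNP, which guides pseudouridylation, followed at 144 FPKM. *Ncl*, encoding nucleolin, the abundant RNA-binding protein of the nucleolus, was the next at 114 FPKM. The lowest means belonged to *Wdr12* of the PeBoW complex of large subunit assembly (2.45 FPKM), the polymerase subunit *Polr1e* (4.47 FPKM) and the large subunit factor *Rrp1b* (5.35 FPKM). The highest library of a gene stood above its lowest by between 1.49 times (*Imp4*) and 4.21 times (*Nhp2*) in tissue, and by between 1.15 times (*Ddx56*) and 2.87 times (*Polr1b*) in organoids.

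**Figure D1:**
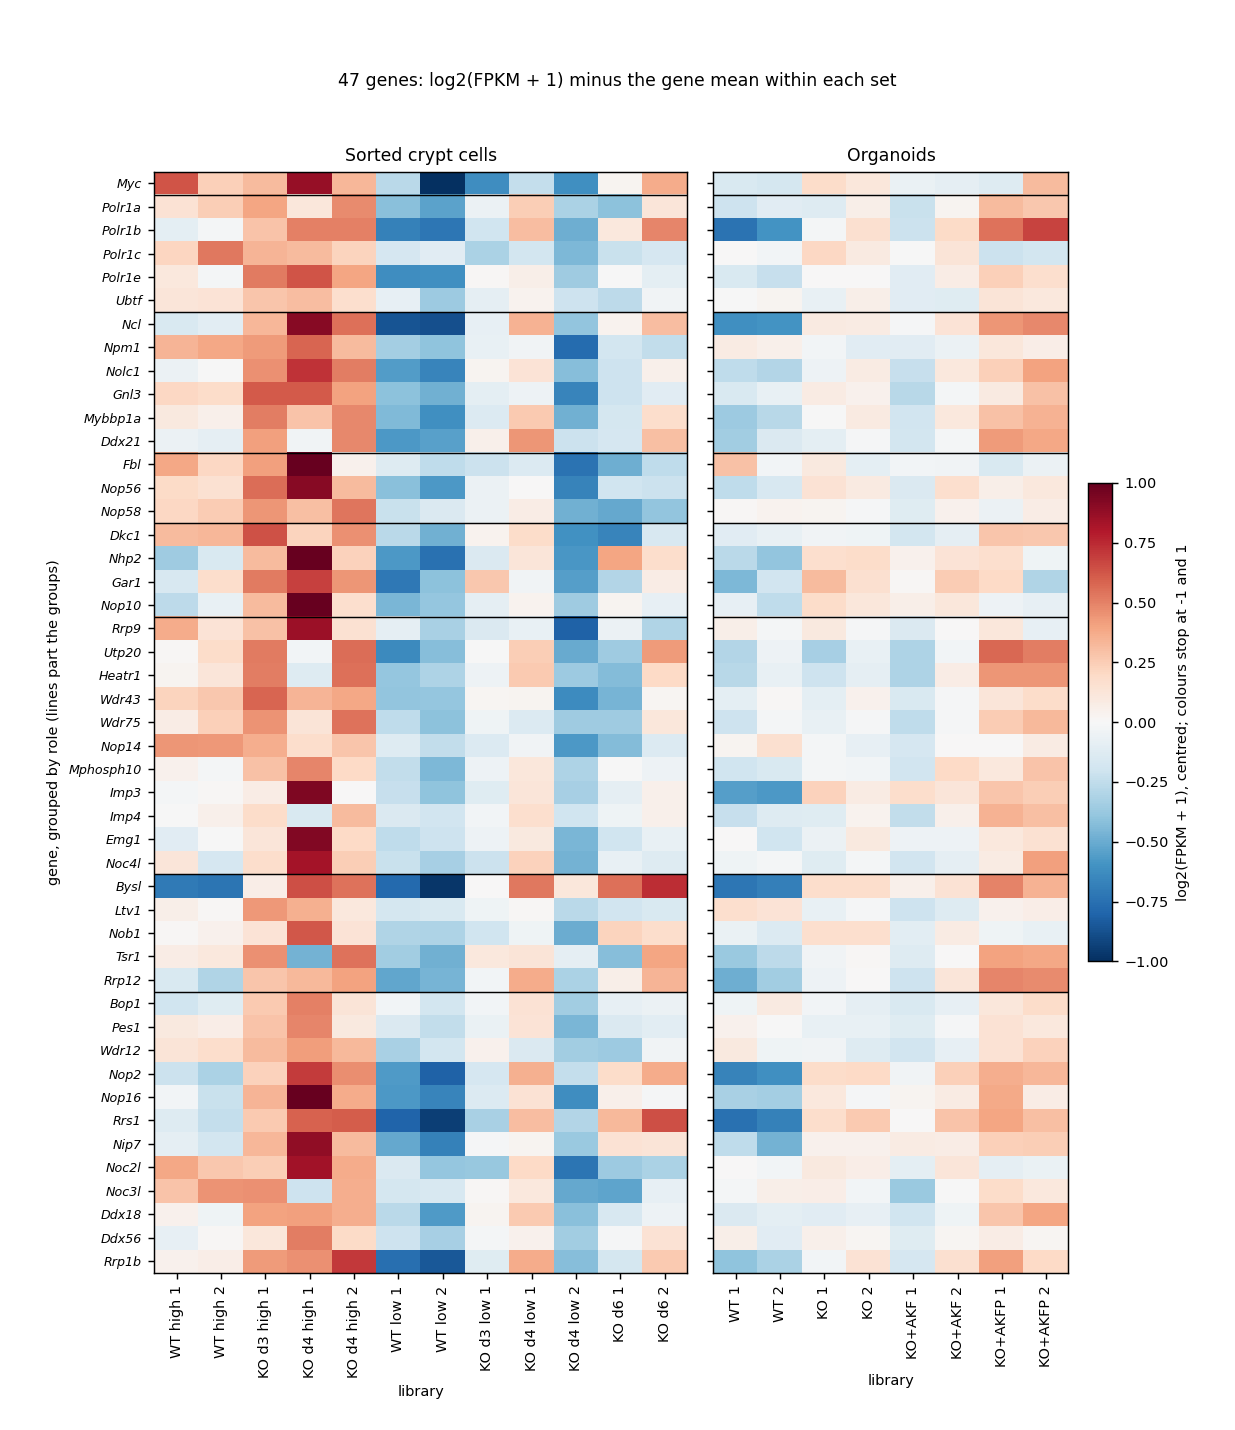
Values of the 47 genes as log2(FPKM + 1) minus the mean of the gene over the 12 tissue libraries (left) or the 8 organoid libraries (right). Genes are in rows by role and libraries in columns. Most rows are lower in WT Lgr5-low than in WT Lgr5-high (46 of 47), and *Bysl* is low in all 4 WT tissue libraries and both WT organoid libraries.

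Libraries held an estimated 14.9 to 25.5 (in 1e6 fragments), and the counting error at the levels of these genes was not estimated. Tissue library sums ran from 456700 to 763200 FPKM, and the highest was that of the first day 6 library. In 2 tissue libraries the values rose as transcripts became shorter: the slope of log2 level per doubling of transcript length was -0.16 in the first knockout day 4 Lgr5-high library and -0.06 in the first day 6 library, against -0.01 to 0.05 in the other 10. The difference between the 2 knockout day 4 Lgr5-high libraries followed transcript length across the 47 genes (Pearson r = -0.71, n = 47 genes measured in the same 2 libraries) more closely than across all tested genes (r = -0.41, n = 12890). *Nhp2*, with a transcript of 1042 bases, was at 332 FPKM in the first library and 156 in the second, and *Tsr1*, with 3389 bases, was at 11.3 and 23.9. In the 2 knockout day 4 Lgr5-low libraries all 47 genes were higher in the first, with a median difference of 0.59, against 0.06 for all genes.

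Across the WT gates, nearly the whole set stood higher in Lgr5-high cells, and none of it passed the test. The level of *Myc* in WT was 31.2 and 23.5 FPKM for Lgr5-high cells and 16.3 and 8.92 FPKM for Lgr5-low cells. Both Lgr5-high libraries thus lay above both Lgr5-low libraries, with a fitted difference of 1.10 ± 0.32 on the log2(FPKM + 1) scale (SE), unadjusted p = 0.00742 and limma adjusted p = 0.153, the smallest adjusted p of the set. *Polr1e* differed by 0.66 ± 0.21 (unadjusted p = 0.012) and *Rrp1b* by 0.86 ± 0.28 (unadjusted p = 0.0152), and neither passed after adjustment over 12899 genes. Of the 47 genes, 46 did not overlap between the gates and were higher in Lgr5-high, against 40.1% of all genes tested, and none did so in the other direction, against 24.3%. Estimates were above 0 for 46 members and 60.5% of all genes. The exception was *Bop1* of the PeBoW complex, whose 4 libraries overlapped (28.1 and 29.7 FPKM in Lgr5-high). The median difference was 0.49 for the 47 genes and 0.10 for all genes. No member was called, where 1.2% of all genes were called in either direction (0.372% higher). An unadjusted p under 0.05 was found for 17 members, and 17 were called with the 2 WT groups fitted alone. Neither count has a share of all genes beside it, so neither is read as a result about the set.

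By role, the median gate difference in WT was 0.64 for RNA polymerase I subunits with its transcription factor *Ubtf*, and 0.62 for nucleolar organisers and chaperones. It was 0.49 for the box C/D snoRNP proteins, which guide ribose methylation, 0.49 for box H/ACA proteins and 0.44 for large subunit factors. The lowest medians were those of the small subunit processome, which makes the early cuts of the transcript (0.42), and of late small subunit assembly (0.26). At day 4 of the knockout the order of the gates was the same: all 47 estimates were above 0, against 53.2% of all genes, with a median of 0.59 against 0.04 for all genes, and 36 of 47 genes did not overlap and were higher in Lgr5-high, against 26.3% of all genes. limma called no gene at all in that comparison (0 of 12899, 0%). An unadjusted p under 0.05 was found for 26 of the 47 genes, a count with no share of all genes beside it. Among them were *Gnl3* (nucleostemin) at 0.86 ± 0.23, the box C/D protein *Nop56* at 0.94 ± 0.27 and the box H/ACA protein *Gar1* at 0.86 ± 0.25. Members were called in this comparison only without the second knockout day 4 Lgr5-high library, which leaves that group only the library with a length slope of -0.16. Calls among all genes also moved with the library left out.

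Markers of stem and differentiated cells moved with these gate differences. The summed level of 7 crypt stem cell markers was 3290 to 3543 FPKM in WT Lgr5-high, 610 to 667 in WT Lgr5-low, 1617 to 2178 in knockout day 4 Lgr5-high, 433 to 726 in knockout day 4 Lgr5-low and 125 to 507 at day 6. Summed enterocyte markers were 239 to 318 FPKM in WT Lgr5-high and 1811 to 3773 in WT Lgr5-low, with 5 of 8 called lower in Lgr5-high (median -3.56). Of 7 goblet and 7 enteroendocrine markers 1 each was called lower (medians -1.65 and -1.79), and no Paneth marker was called. All 25 cell cycle genes had estimates above 0 between the WT gates (median 0.38), and none was called. Of 9 immune markers 3 reached the level for testing, and of 9 stromal and endothelial markers 1 did, with *Cdh5* at 0 in both libraries of each WT gate and *Kdr* at 0 in both WT Lgr5-high libraries. The part of cell makeup in the differences of the 47 genes was not tested, and in such bulk samples fewer cells of a type and less RNA per cell cannot be told apart.

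*Bysl* encodes bystin, a factor of small subunit maturation. In tissue it was the only member with all knockout libraries above all WT libraries of both gates. Its level was 8.77 and 8.58 FPKM in WT Lgr5-high and 8.29 and 7.14 in WT Lgr5-low. At day 3 it was 15.7 in the Lgr5-high and 15.0 in the Lgr5-low knockout library. At day 4 it reached 24.0 and 22.2 FPKM in Lgr5-high and 21.9 and 16.3 in Lgr5-low, and at day 6 it was 22.4 and 25.6. All 8 knockout libraries were above all 4 WT libraries, which held for 1 of the 47 genes and for 3.92% of all genes tested. The share of members is thus not above the background. Within a gate *Bysl* was not alone. All 3 knockout libraries of days 3 and 4 lay above both WT libraries for 30 members in Lgr5-high (18.8% of all genes). In Lgr5-low this held for 14 members (21.8% of all genes), and *Ncl* and *Nop2* were among the members in each gate.

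*Bysl* rose at day 4 in Lgr5-high by 1.31 ± 0.20 (SE; 23.1 ± 1.28 against 8.68 ± 0.133 FPKM, SD, n = 2; limma adjusted p = 0.0275). In Lgr5-low it rose by 1.20 ± 0.20 (limma adjusted p = 0.0489). At day 6 it was higher by 1.37 ± 0.20 than in WT Lgr5-high (adjusted p = 0.0031) and by 1.52 ± 0.20 than in WT Lgr5-low (adjusted p = 0.00325). The day 4 calls are near the threshold. Over 18 alternatives each, the adjusted p ran from 0.0189 to 0.267 in Lgr5-high, where leaving out either WT Lgr5-high library, either WT Lgr5-low library or the first knockout day 4 Lgr5-high library ended the call, and from 0.0373 to 0.447 in Lgr5-low, where leaving out any 1 of 8 libraries did.

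The gene lies on chromosome 17 from 47599331 to 47611492 (GRCm38, minus strand) and overlaps *Ccnd3*, encoding cyclin D3, on the opposite strand. No source used here says that strand was kept, and without strand the reads of an overlapping pair cannot be told apart. *Ccnd3* was at 3.43 and 1.55 FPKM in WT Lgr5-high, 2.03 and 4.34 in WT Lgr5-low, 1.46 and 4.18 in knockout day 4 Lgr5-high, 2.73 and 4.42 in knockout day 4 Lgr5-low, and 8.66 and 3.03 at day 6. Its knockout and WT values overlapped at day 4 in both gates. An antisense gene overlaps 20 of the 47 genes, and for 11 of these its mean exceeds 1 FPKM in either set.

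Window sequence is shown for members that rose in tissue or organoids and for *Pes1* of the PeBoW complex, which was called in no comparison. *Myc* and its partner *Max* bind the E-box CACGTG and, less strongly, CACGCG. Both motifs were searched on both strands from 250 bases before to 50 bases after the start of each gene in RefSeq (GRCm38.p6), which holds 41 of the 47 genes. *Npm1*, *Rrp12*, *Fbl*, *Rrs1*, *Bop1* and *Myc* were not searched. Each run below is 30 bases, 5' to 3' on the strand of the gene, with the motif in capitals, and CGCGTG is CACGCG read on the other strand.
Bysl, chr17:47611604-47611633, minus strand: actccagaccttCACGCGaacggcggcccc
Nop2, chr6:125131811-125131840, plus strand: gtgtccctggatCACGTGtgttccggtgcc
Nhp2, chr11:51619764-51619793, plus strand: ggaggcggcggcCGCGTGgttcctctatgc
Tsr1, chr11:74898092-74898121, plus strand: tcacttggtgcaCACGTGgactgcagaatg
Utp20, chr10:88826765-88826794, minus strand: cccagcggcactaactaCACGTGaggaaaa
Pes1, chr11:3963965-3963994, plus strand: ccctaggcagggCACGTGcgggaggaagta

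The motif of *Bysl* begins at -129 and that of *Nop2* at -60 from the start, while the others shown begin past it, at 4 in *Nhp2*, 25 in *Tsr1*, 38 in *Utp20* and 3 in *Pes1*. Of the 8 members with CACGTG, 2 hold it before the start. CACGTG was present in 8 of 41 members (19.5%), in 8.09% of all 27025 promoters and in 12% of the promoters of genes tested in tissue. CACGCG was present in 15 of 41 (36.6%), against 10.5% and 19.9%. Either was present in 21 of 41 (51.2%), against 17.2% and 29.2%. A match is a run of letters and was not tested as a binding site.

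**Figure D2:**
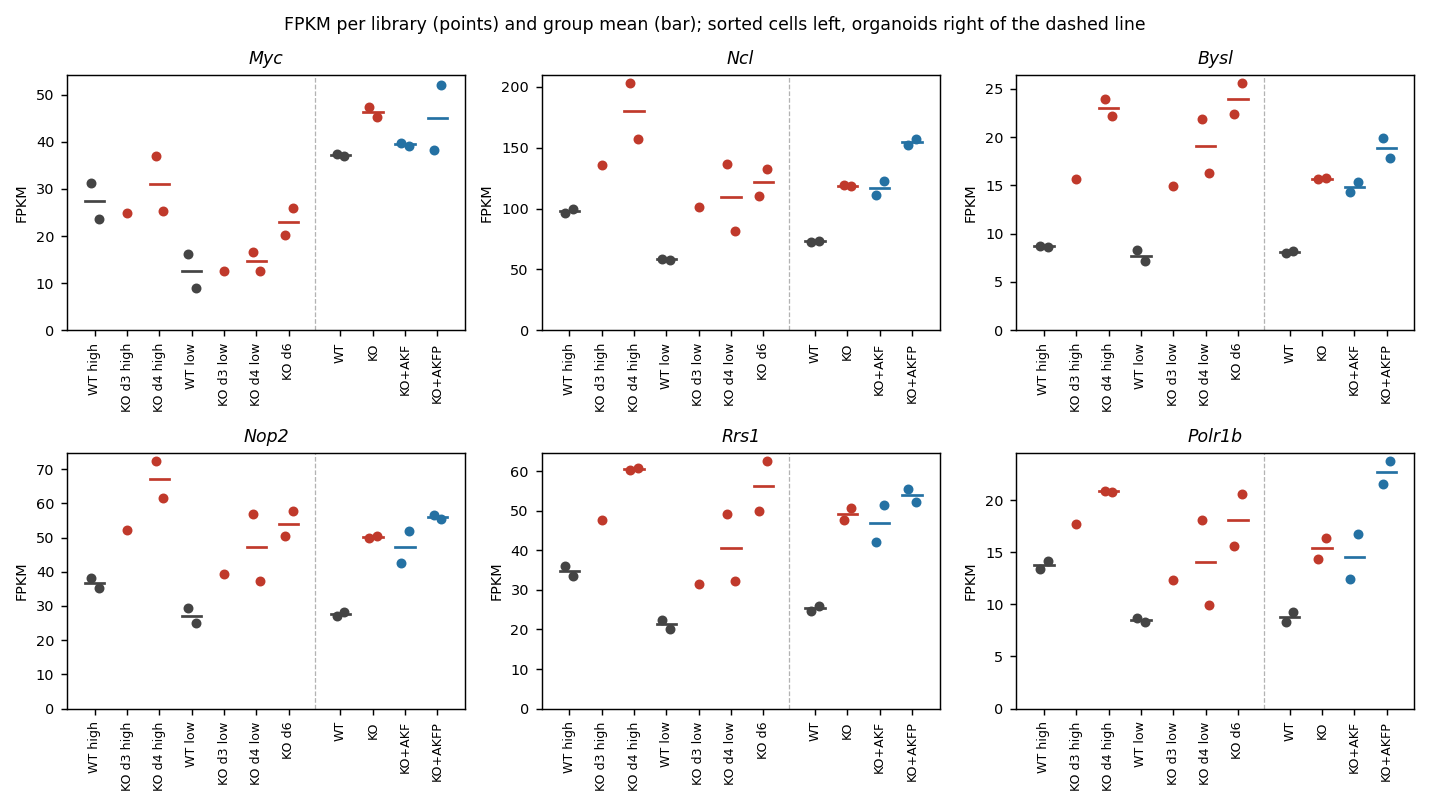
FPKM of *Myc*, *Ncl*, *Bysl*, *Nop2*, *Rrs1* and *Polr1b* in each library (points) with the mean of groups of 2 (bars). Tissue is to the left and organoids to the right of the dashed line, with WT in grey, knockout in red and knockout with AKF or AKFP in blue. *Bysl* stays at or under 8.77 FPKM in all WT libraries and at or above 14.3 in all knockout libraries, while the *Myc* points of WT and knockout tissue overlap.

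At day 4 most other members stood higher in the knockout without passing the test. In Lgr5-high, 43 of 47 estimates were above 0 against 48.1% of all genes, 30 did not overlap and were higher against 24.9%, and the median was 0.31 against -0.02. limma called 1 member (*Bysl*) where 1.05% of all genes were called (0.729% higher). More members were called without the second knockout day 4 Lgr5-high library, and calls among all genes also moved with the library left out. The large subunit methyltransferase *Nop2* was at 72.4 and 61.6 FPKM against 38.1 and 35.4 in WT Lgr5-high (0.85 ± 0.23, adjusted p = 0.121). *Rrs1*, which brings the 5S particle into the large subunit, was at 60.2 and 60.9 against 36.2 and 33.5 FPKM (0.78 ± 0.23, adjusted p = 0.144). Neither passed, though the libraries of the groups did not overlap. In Lgr5-low, 39 estimates were above 0 against 53.1% of all genes, and 14 genes did not overlap and were higher against 29.1%, a share near the background, while 1 did so in the other direction against 24.3%. Median-of-ratios scaling moved the share of higher calls among all genes in Lgr5-high from 69.1% to 58.0%, and taking out the length trend moved it to 51.3%. In Lgr5-low the median was 0.21 against 0.03, and 1 member was called where 0.473% of all genes were. The mean log2(FPKM + 1) of the 47 genes was 4.54 in the first knockout Lgr5-low library and 3.98 in the second. In WT Lgr5-low it was 4.04 and 3.95, so only the first knockout library stood above WT in this mean. With median-of-ratios scaling 33 estimates were above 0 in Lgr5-low.

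*Rrs1* (0.88 ± 0.23, adjusted p = 0.155) and *Nop2* (0.75 ± 0.23, adjusted p = 0.214) followed *Bysl* in Lgr5-low by size of p. The difference between the gates in the day 4 knockout change was itself tested. No member was called (0.0155% of all genes were), and none had an unadjusted p under 0.05. The smallest p were those of *Bop1* (0.47 ± 0.31), *Emg1*, a methyltransferase of the small subunit (0.57 ± 0.38), and *Nop10* of the box H/ACA snoRNP (0.57 ± 0.43), each with adjusted p = 0.963. The single day 3 libraries, which have no replicate and no test, lay above both WT libraries of their gate for 42 members in Lgr5-high (43.4% of all genes) and 40 in Lgr5-low (42% of all genes). The median day 3 difference from the WT mean was 0.34 in Lgr5-high and 0.33 in Lgr5-low, against 0.05 and 0.04 for all genes. *Ncl* stood at 135 and 101 FPKM there, against WT means of 97.9 and 58.2, whereas *Myc* stood at 24.9 and 12.5, between the WT libraries of its gate in both cases.

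At day 6, which has no gate in its labels, the knockout was set beside each WT gate. Against WT Lgr5-low, 5 members rose and none fell, where 6.22% of all genes were called higher and 5.25% lower. They came from 4 of the 8 roles. *Bysl* and *Rrs1* rose most. *Rrs1* was at 49.9 and 62.6 FPKM at day 6 and 22.4 and 20.2 in WT Lgr5-low, a rise of 1.35 ± 0.23 (limma adjusted p = 0.00867). *Nop2* was at 50.4 and 57.7 FPKM against 29.5 and 24.9 (0.97 ± 0.23, adjusted p = 0.0312). *Ncl* was at 110 and 133 FPKM against 58.6 and 57.8 (1.04 ± 0.27, adjusted p = 0.0388). *Polr1b*, the second largest subunit of RNA polymerase I, was at 15.6 and 20.6 FPKM against 8.65 and 8.35, 2.13 times as high in the mean (adjusted p = 0.0457). In each of these genes both day 6 libraries lay above both WT libraries. On GRCm38 *Rrs1* lies on chromosome 1 from 9545408 to 9547455, *Nop2* on chromosome 6 from 125131909 to 125144753, *Ncl* on chromosome 1 from 86344719 to 86359400 and *Polr1b* on chromosome 2 from 129100995 to 129126594.

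Over the set, the day 6 median against WT Lgr5-low was 0.31, and -0.08 for all genes. In all, 30 of the 47 genes did not overlap and were higher, against 26.1% of all genes. *Myc* itself was at 20.2 and 25.9 FPKM at day 6 (0.87 ± 0.32, adjusted p = 0.117), above both WT Lgr5-low libraries and not called. With the values scaled to equal FPKM sums none of the 5 calls held, and 27 of 47 estimates rather than 39 were above 0. That scaling moved the median of all genes from -0.08 to -0.29, while the members stayed above it by 0.32 (0.39 unscaled). It also moved the share of higher calls among all genes from 54.2% to 38.4%. Leaving out either WT Lgr5-low library left 1 call, that of *Bysl*, and leaving out either day 6 library or either WT Lgr5-high library left 2, those of *Bysl* and *Rrs1*. The call of *Ncl* was also lost with the length trend taken out. With the first day 6 and first knockout day 4 Lgr5-high libraries both left out, 3 members were called.

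Against WT Lgr5-high, *Bysl* rose and 1 member fell, where 10.1% of all genes were called higher and 11.9% lower. *Nop14*, a small subunit processome factor, was at 10.6 and 13.3 FPKM at day 6 and 20.2 and 20.2 in WT Lgr5-high, a fall of -0.72 ± 0.22 (limma adjusted p = 0.0465). Leaving out any 1 WT or day 6 library ended this call. It was kept in 4 of 8 other alternatives. It was lost with no filter, equal FPKM sums, median-of-ratios scaling, or the 2 libraries with a length trend left out together. With median-of-ratios scaling 2 members were called higher and 0 lower. *Nop58*, a core box C/D protein, had the next smallest p (6.68 and 7.32 FPKM against a WT mean of 11.8, -0.68 ± 0.22, adjusted p = 0.0563) and did not pass. Over the set, 18 members did not overlap and were lower, against 41.7% of all genes, and 11 were higher, against 27.5%. All 3 box C/D proteins were among the 18. The median of the set was -0.09 against -0.16 for all genes, and its sign followed the scaling: it was -0.46 with equal FPKM sums and 0.09 with median-of-ratios scaling, which moved the share of higher calls among all genes from 45.9% to 28.3% and 57.3%. *Npm1* was at 149 and 142 FPKM against 214 and 222 (-0.58 ± 0.25, adjusted p = 0.135). *Ncl* lay on the other side, with both day 6 libraries above both WT Lgr5-high libraries (0.30 ± 0.27, adjusted p = 0.434).

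Within the knockout, day 6 stood below day 4 Lgr5-high in 46 of 47 estimates (median -0.46, and -0.14 for all genes), and none was called where 3.21% of all genes were (1.98% higher and 1.23% lower). The share of higher calls among all genes moved from 61.6% to 71.6% with equal FPKM sums and 73.7% with median-of-ratios scaling. In all, 33 members did not overlap and were lower, against 30.4%. With all libraries 17 members had an unadjusted p under 0.05, a count with no share of all genes beside it. Members were called lower only without the second knockout day 4 Lgr5-high library, and calls among all genes also moved with the library left out. *Nop58* came closest (-0.87 ± 0.22, adjusted p = 0.0689), followed by the snoRNP chaperone *Nolc1* and *Noc2l* of large subunit assembly. Against day 4 Lgr5-low none was called either, at a background of 0.0543%, and no member had an unadjusted p under 0.05. The smallest p there was that of *Nob1*, the nuclease that finishes 18S rRNA (0.47 ± 0.22, adjusted p = 0.641).

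Differentiated cell markers moved with the day 6 comparison. Of 7 goblet markers 6 were higher at day 6 than in WT Lgr5-high and 1 was higher than in WT Lgr5-low, and of 7 enteroendocrine markers 7 and 1 were. Of 8 enterocyte markers 6 were higher than in WT Lgr5-high (median 3.04) and none was called against WT Lgr5-low, and of 7 Paneth markers 3 and 1 were higher. Of 25 cell cycle genes 8 were lower and 1 was higher than in WT Lgr5-high, and 1 was higher than in WT Lgr5-low. All 7 crypt stem cell markers fell against WT Lgr5-high and none changed by the test against WT Lgr5-low. The summed level of 9 genes that respond early to tissue dissociation was 2286 to 2344 FPKM in WT Lgr5-high, 1724 to 2194 in WT Lgr5-low, 768 to 1059 in knockout day 4 Lgr5-high, 633 to 1025 in knockout day 4 Lgr5-low and 636 to 669 at day 6. The part of these markers in the values of the 47 genes was not tested.

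In organoids, grown and treated apart from the sorted tissue, 14 members were called higher in those labelled knockout than in WT, and none lower. The background was 16.7% of all genes higher and 11.5% lower. The groups also differ in treatment, so the part of the deletion in these differences was not tested. *Bysl* rose by 0.88 ± 0.08, from 7.97 and 8.22 FPKM in WT to 15.7 and 15.7 in knockout (limma adjusted p = 0.000715). *Imp3*, a small protein of the U3 snoRNP, was at 41.6 and 40.9 FPKM in WT and 72.2 and 65.1 in knockout (0.72 ± 0.07, adjusted p = 0.00103). *Ncl* was at 72.8 and 73.6 FPKM in WT and 119 and 119 in knockout (0.69 ± 0.07, adjusted p = 0.00111). *Rrs1* was at 24.7 and 25.9 FPKM and 47.6 and 50.6 (0.93 ± 0.10, adjusted p = 0.00147), and *Nop2* at 27.2 and 28.2 FPKM and 49.9 and 50.3 (0.83 ± 0.09, adjusted p = 0.00166). In these 5 genes both knockout libraries lay above both WT libraries, and all 5 calls held in each of the 7 alternatives and the 8 fits without 1 library.

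Among the other 9 members called, *Polr1b* rose by 0.74, *Nhp2* by 0.51, the large subunit factor *Nip7* by 0.41, the export factor *Rrp12* by 0.40, *Nop16* by 0.38, the nucleolar repressor *Mybbp1a* by 0.36, *Nop10* by 0.32, the GTPase-like factor *Tsr1* by 0.31 and *Nob1* by 0.27. Late small subunit assembly held the largest share of called members, 4 of 5. Of these calls that of *Bysl* held throughout, while *Nob1* was kept in 2 of 7 alternatives, *Rrp12* in 5 and *Tsr1* in 6. The calls of *Nob1*, *Rrp12* and *Tsr1* were also lost in some fits without 1 library. None of the 3 box C/D proteins was called: *Nop56* stood at 0.33 ± 0.11 (adjusted p = 0.0608), *Nop58* at -0.02 ± 0.08 and *Fbl*, the 2'-O-methyltransferase fibrillarin, at -0.13 ± 0.12. *Myc* was at 37.4 and 36.9 FPKM in WT and 47.4 and 45.3 in knockout, without overlap, at 0.31 ± 0.13 (adjusted p = 0.124). *Npm1* lay on the other side of WT, at 206 and 201 FPKM in WT and 190 and 180 in knockout (-0.14 ± 0.07, adjusted p = 0.167). The count of members called ran from 6 to 16 when 1 library was left out, with 6 to 8 where that library belonged to the WT or the knockout group. Equal FPKM sums moved the share of higher calls among all genes from 59.1% to 40.8%. With that scaling 8 members rose and 2, *Ltv1* and *Npm1*, fell. With the length trend taken out 13 rose and the same 2 fell, and with median-of-ratios scaling 14 rose and 1, *Ltv1*, fell.

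Cell type markers moved with the organoid comparison as well. Of 7 markers each, 6 enteroendocrine, 7 goblet and 3 Paneth markers were higher in knockout, 5 of 7 enterocyte markers tested were lower (median -1.06), and 4 of 9 early dissociation genes were higher. The summed stem cell markers were 707 to 811 FPKM in WT and 412 to 434 in knockout. Of 25 cell cycle genes 1 rose and 7 fell. The part of these in the rise of the 14 genes was not tested.

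**Figure D3:**
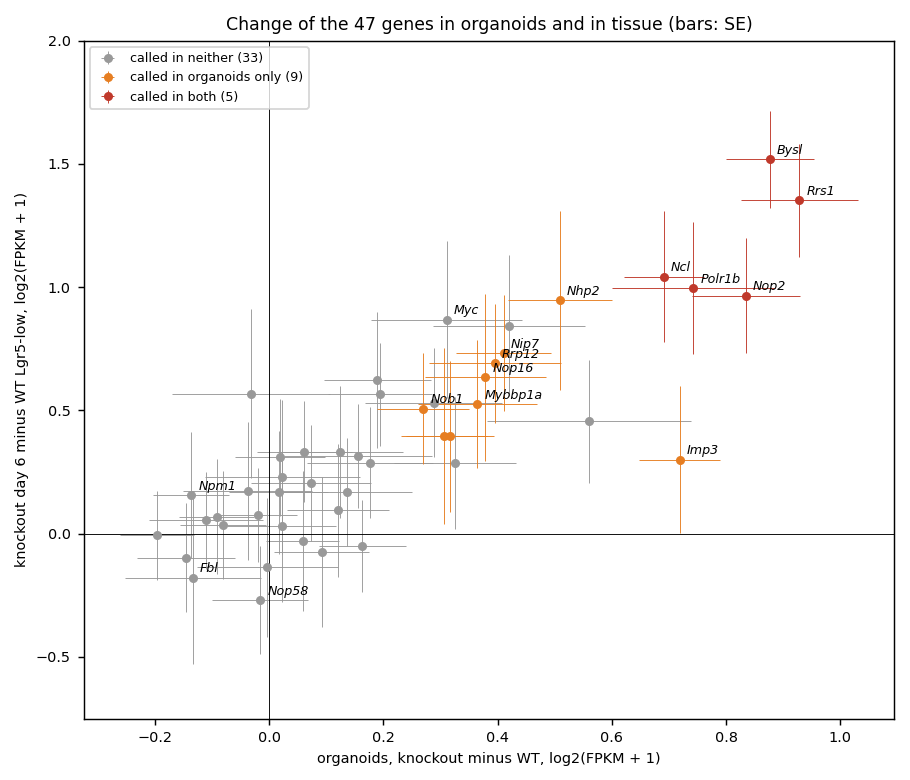
Change of each of the 47 genes in organoids (horizontal, knockout minus WT) and in tissue (vertical, knockout day 6 minus WT Lgr5-low). The scale is log2(FPKM + 1) with SE bars, and colour shows whether limma called the gene. *Bysl*, *Rrs1*, *Ncl*, *Polr1b* and *Nop2* were called in both and lie in the upper right, 9 genes were called in organoids alone, and 33 in neither.

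The order of the members by size of change was alike in the organoid and day 6 comparisons, which share no library. Across the 47 genes the organoid change correlated with the change of day 6 against WT Lgr5-low at Pearson r = 0.85 (Spearman rho 0.81), and across the 12097 genes tested in both at r = 0.58. These points share libraries within each axis, so the values are a description. With the day 4 changes the organoid change correlated at r = 0.70 in Lgr5-high and 0.78 in Lgr5-low over the same 47 genes (0.43 and 0.47 over all genes). The 5 genes called against WT Lgr5-low at day 6 were all among the 14 organoid calls, of which they made up 35.7%. The same overlap of calls was not counted over all genes, so it is not shown to be particular to this set.

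With AKF added to knockout organoids, no member passed the test. limma called none of the 47, at a background of 0.0474% of all genes, and none had an unadjusted p under 0.05. Members lay between -0.23 (*Myc*, 39.8 and 39.1 FPKM) and 0.04, with a median of -0.06 and 0.00 for all genes. The smallest p were those of *Nob1* (-0.18 ± 0.08), *Ltv1* of small subunit export (-0.13 ± 0.06) and *Gnl3* (-0.21 ± 0.11), each with adjusted p = 1. *Ncl* was at 111 and 123 FPKM and *Bysl* at 14.3 and 15.4.

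With AKFP, 9 members rose and 1 fell against knockout, at a background of 13.2% higher and 13.2% lower. These groups differ in the labels by all the added factors and by their retroviral delivery, which cannot be told apart here. The rise was largest in *Utp20*, a very large scaffold of the small subunit processome, from 4.76 and 5.89 FPKM in knockout to 9.78 and 9.36 with AKFP (0.75 ± 0.14, limma adjusted p = 0.0122). *Ddx18*, a helicase of large subunit assembly, went from 22.8 and 23.3 FPKM to 30.2 and 32.9 (0.44 ± 0.08, adjusted p = 0.0112). *Ncl* went from 119 and 119 FPKM to 152 and 157 (0.38 ± 0.07, adjusted p = 0.012) and *Tsr1* from 15.7 and 16.2 to 21.6 and 21.3 (0.41 ± 0.08, adjusted p = 0.0123). *Heatr1*, *Polr1b*, *Rrp12*, the helicase *Ddx21* and *Dkc1*, encoding the pseudouridine synthase dyskerin, rose by 0.59, 0.53, 0.50, 0.47 and 0.31. *Polr1c*, a subunit shared by RNA polymerases I and III, fell from 25.3 and 23.2 FPKM to 18.5 and 19.0 (-0.35 ± 0.08, adjusted p = 0.0196). In the same comparison 12 of 25 cell cycle genes, 3 of 7 stem cell markers and 5 of 7 Paneth markers rose. Of 7 enteroendocrine markers 6 fell and 1 rose, 3 of 7 enterocyte markers tested fell, and 9 of 9 early dissociation genes fell. The part of these in the changes of the 10 members was not tested.

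The change with AKFP was larger in genes with longer transcripts. Across the 47 genes the AKFP change correlated with log2 transcript length at r = 0.75, and at r = 0.25 across 12649 genes. The slope of level on length was 0.05 and 0.07 per doubling in the AKFP libraries and -0.05 to 0.02 in the other 6. With that length trend taken out of every library, 11 members were called against 10 before, and the call of *Ncl* was lost (0.17, limma adjusted p = 0.146). The annotated length used for *Ncl* was 8202 bases, and the loss of its calls rests on that choice of transcript, to which no alternative was tried. Leaving out the first knockout library, or the second AKFP library, left no member called against knockout. Without the second knockout library 5 were called, and without the first AKFP library 3. Leaving out either AKF library, which is in neither group, gave a count of 17. With equal FPKM sums the count was 20, and the share of higher calls among all genes moved from 49.9% to 69.4%.

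**Figure D4:**
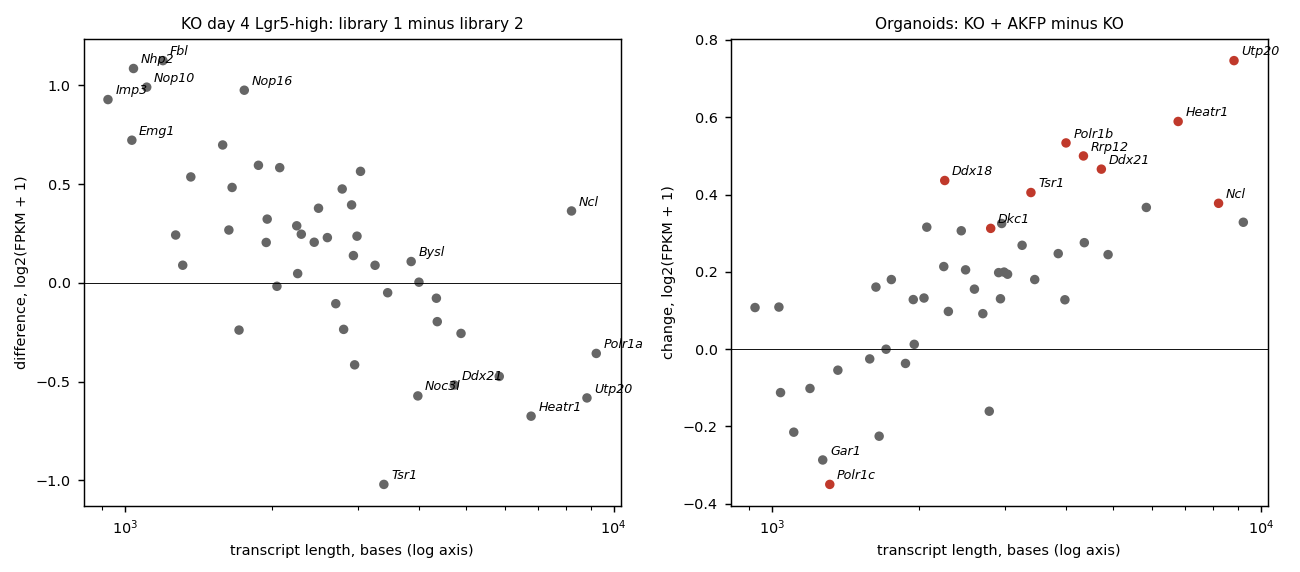
Left, the difference between the 2 knockout day 4 Lgr5-high libraries for each of the 47 genes, and right, the change of knockout with AKFP against knockout in organoids, both on the log2(FPKM + 1) scale, against transcript length in bases on a log axis, with called genes in red on the right. Points fall with length on the left (r = -0.71) and rise with length on the right (r = 0.75).

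Against AKF organoids, the comparison that differs by *Purb* alone in the labels, 18 members rose and 1 fell (12.8% and 12.7% of all genes). *Dkc1* had the smallest p (14.5 and 15.5 FPKM with AKF, 20.3 and 20.2 with AKFP, 0.41 ± 0.06, adjusted p = 0.00701), and *Polr1c* was the gene that fell (-0.26 ± 0.08, adjusted p = 0.0456). That call of *Polr1c* was kept in 2 of 7 alternatives and in 0 of 8 fits without 1 library (adjusted p up to 0.243). The call of *Ncl* against AKF was lost with the length trend taken out (adjusted p = 0.075). Late small subunit assembly had 4 of 5 members called, all higher, the RNA polymerase I group 4 of 5, 3 higher and 1 lower, and the processome 5 of 11, while no box C/D protein was called. Of the higher RNA polymerase I calls, *Polr1b* was kept in 5 of 7 alternatives, *Polr1a* in 4 and *Ubtf* in 3. Equal FPKM sums moved the share of higher calls among all genes from 50.2% to 68.8%. The count fell to 2 without the second AKFP library, to 4 without the first AKF library, to 6 without the first AKFP library and to 10 to 12 without any 1 WT or knockout library. Against WT organoids, 23 members rose with AKFP and none fell, where 24.6% of all genes were called higher and 18.8% lower. *Bysl* reached 19.9 and 17.8 FPKM (1.12 ± 0.08 above WT, adjusted p = 0.000166) and *Ncl* stood 1.07 ± 0.07 above WT (adjusted p = 0.000156). All 6 knockout organoid libraries lay above both WT libraries for 17 members, against 22.6% of all genes. *Myc* was among these 17 and was called in none of the 14 comparisons.

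A further 89 ribosome biogenesis genes outside the list were all tested. In WT gates none was called (median 0.40), at day 4 none was called in either gate (medians 0.21 and 0.19), and at day 6 against WT Lgr5-low 6 rose and none fell (median 0.20), a share near the 6.22% of all genes called higher. In knockout organoids 25 rose and 1 fell (median 0.15), where 16.7% and 11.5% of all genes did, and with AKFP against knockout 15 rose and 5 fell, where 13.2% did in each direction. *Grwd1*, a chaperone of the large subunit protein Rpl3, rose at day 6 against WT Lgr5-low by 1.57 ± 0.25 (48.5 ± 4.34 against 15.7 ± 2.71 FPKM, SD, n = 2; adjusted p = 0.00691). *Mrto4* of large subunit assembly rose in knockout organoids by 0.75 ± 0.08 (adjusted p = 0.00109), and *Nop53*, also of the large subunit, fell at day 6 against WT Lgr5-high by -1.28 ± 0.26 (68.6 ± 1.54 to 27.7 ± 1.14 FPKM; adjusted p = 0.0104).

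Partners, paralogues and antagonists of *Myc* made up a list of 12 other genes of its network. Of these, 1 rose and 5 fell at day 6 against WT Lgr5-high, and none rose and 2 fell against WT Lgr5-low. Of all genes, 10.1% were called higher and 11.9% lower against WT Lgr5-high, and 6.22% and 5.25% against WT Lgr5-low. The paralogue *Mycl* was at 23.6 ± 0.525 FPKM in WT Lgr5-high and 5.06 ± 0.880 at day 6 (-2.03 ± 0.27, adjusted p = 0.00234). *Mycn* fell from 1.71 ± 0.251 FPKM in WT Lgr5-high to 0.180 ± 0.0302 (-1.20 ± 0.20, adjusted p = 0.0053). Of 20 *Myc* targets outside ribosome biogenesis, 1 rose and 3 fell at day 6 against WT Lgr5-high, among the latter *Impdh2* of guanine nucleotide synthesis (-1.58 ± 0.26, adjusted p = 0.0048). Against WT Lgr5-low 2 rose and none fell, among them the amino acid transporter *Slc7a5* (5.94 ± 1.33 to 24.9 ± 0.126 FPKM, 1.91 ± 0.25, adjusted p = 0.0032). In knockout organoids 3 of the 20 rose and 4 fell, where 16.7% of all genes were called higher and 11.5% lower. The counts of the 20 genes were not tested against these shares.

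Some members host small nucleolar RNAs, which the list did not use. An annotated snoRNA lies inside 7 of the 47 genes on the same strand (14.9%), against 1.27% of 21921 protein-coding genes. These hosts were *Ncl*, *Gnl3*, *Nop56*, *Nop58*, *Dkc1*, *Wdr43* and *Tsr1*.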

How the data were processed

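RNA-seq was described in 12 tissue and 8 organoid libraries. The authors deposited FPKM values per Ensembl gene, in a file per tissue library, whose headers name the unit, and in one organoid table. The organoid header names no unit, and its values were taken as FPKM from their like format and range. Symbols and positions come from GENCODE M21. HISAT2 2.1.0, StringTie 1.3.3b and mm10 are named per the submitters' processing notes, with no roles. Counts were not used here, so depth was estimated from the steps of FPKM in 21486 genes with a single exon.

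From these, log2(FPKM + 1) was fitted with limma 3.58.1 (R 4.3.3, trended variance), one mean per group, over genes with at least 1 FPKM in at least 2 libraries (12899 in tissue, 12657 in organoids). Tissue and organoids were fitted apart, since they were deposited as separate tables, and the day 3 libraries, without a replicate, stayed outside the fit. All tests are two-sided, with Benjamini-Hochberg adjustment over all genes of a fit and a threshold of 0.05, and 14 comparisons were made. "Called" means past it. Values after ± are standard errors of a fitted difference, or SD where stated. The labels do not say that libraries came from separate animals or cultures, so p-values measure only the spread between libraries, which may be technical. The fit was also run on simulated data with noise drawn independently for each gene. That simulation held no shifts of a whole library or with transcript length, so it cannot show how calls behave under them.

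Genes named were *Myc*, *Ncl* and *Npm1*, up to 4 called genes per direction and comparison with the smallest p, the 3 smallest p where fewer were called, the 3 highest and 3 lowest levels, and the smallest p of each role; other members named were chosen after their values were seen. The members and gene lists were chosen with earlier results of these data known. Alternatives were a pseudocount of 0.1, no filter, equal FPKM sums, median-of-ratios scaling, the compared groups alone, a replicate block and leaving out each library. A removal of the transcript length trend, and leaving out 2 libraries together, were added after seeing the data. Transcript length was that of a single annotated GENCODE M21 transcript per gene, which need not be the main one in these cells.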

Additional observations from a re-analysis of the deposited data

Results flagged for a closer look

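In 7 of the 47 genes (14.9%) the knockout libraries lay on one side of WT in organoids and on the other side in at least 1 of 4 tissue comparisons at day 4 or 6, with no overlap in either. The same held for 18.4% of the 12097 genes tested in both sets, so the share is not above the background. It does not hold for all tissue libraries: in *Gnl3* and *Nop56* the 3 knockout Lgr5-high libraries of days 3 and 4 lay above WT Lgr5-high, the side on which the organoids lay. The difference between tissue and organoids was not tested, since the sets were deposited as separate tables. At day 6 against WT Lgr5-high, the change of *Dkc1* was -0.73 and that in organoids 0.06. *Gnl3* stood at -0.35 at day 6 and 0.18 in organoids, *Noc2l* at -0.66 and 0.09, and *Nop56* at -0.38 and 0.33. *Polr1c* stood at -0.56 at day 6 against WT Lgr5-high and at -0.18 at day 4 in Lgr5-low, and at 0.16 in organoids. *Ltv1* stood at 0.20 at day 4 in Lgr5-high and -0.20 in organoids. *Npm1* stood at 0.16 at day 6 against WT Lgr5-low and -0.14 in organoids. None of these 15 changes was called by limma.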

How the results depend on the processing

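Counting error was not compared with the spread between libraries, and groups of 2 libraries limit the precision. No called member changed sign under any alternative. Members called at day 4 in Lgr5-high went from 1 to 0 with no filter, equal FPKM sums, the compared groups alone or the 2 libraries with a length trend left out. In Lgr5-low they went from 1 to 0 with a pseudocount of 0.1, no filter, equal FPKM sums, median-of-ratios scaling or the compared groups alone. Between the WT gates 17 were called with the compared groups alone, with no share of all genes beside that count. At day 6 against WT Lgr5-high the count of 2 became 1 with no filter or both libraries left out, 0 with equal FPKM sums, 5 with the length trend taken out and 6 with the compared groups alone. Against WT Lgr5-low the 5 became 2 with no filter, 0 with equal FPKM sums and 3 with both libraries left out. In organoids AKFP against knockout went from 10 to 20 with equal FPKM sums, and AKFP against AKF from 19 to 8 with no filter and 6 with the compared groups alone. The cause of these shifts was not tested.

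With 1 library left out, the counts ran from 0 to 5 at day 4 in Lgr5-high, 0 to 1 in Lgr5-low, 0 to 10 between the day 4 gates, 1 to 4 at day 6 against WT Lgr5-high, 1 to 7 against WT Lgr5-low and 0 to 6 against day 4 Lgr5-high. They ran from 6 to 16 in knockout organoids, 0 to 17 for AKFP against knockout, 2 to 22 against AKF and 19 to 26 against WT. They were 0 throughout between the WT gates, for the gate difference, at day 6 against day 4 Lgr5-low and for AKF.

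The median day 3 difference in Lgr5-high was 0.36 with a pseudocount of 0.1, 0.41 with equal FPKM sums, 0.28 with median-of-ratios scaling and 0.36 against the first WT library alone. In Lgr5-low it was 0.39 with a pseudocount of 0.1, 0.26 with median-of-ratios scaling and 0.39 against the second WT library alone.

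Replicate numbers are shared across groups, but no label ties libraries of one number to an animal or day. The column headers of WT and day 4 differ in form between the first and second libraries, for a reason not given. Differences between replicates 1 and 2 correlated at 0.0243 to 0.521 between tissue groups and -0.0392 to 0.0911 between organoid groups. The value was 0.44 between the WT gates and 0.34 between the day 4 gates. The highest was that between knockout day 4 Lgr5-high and day 6. Whether the gates were paired by sort is not stated. With the replicate number as a block, 1 member was called at day 4 in each gate, 2 at day 6 against WT Lgr5-high, 6 against WT Lgr5-low, 13 in knockout organoids, 15 for AKFP against knockout, 21 against AKF and 27 against WT, and 0 in the other comparisons.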
